A study of Mus musculus with 194 samples.

Results

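Single L1210 cells were divided by their transcript level of Cdkn1a. L1210 is an established mouse lymphocytic leukemia line of the DBA strain. The cells grew without drug or stimulation in a microfluidic device that holds the descendants of one founding cell apart from other lineages, were released one by one, and each gave 1 Smart-Seq2 library, a full-length cDNA library from the polyadenylated RNA of 1 cell. The labels record the sister, the cousins and the hours since the last division of each cell. The series holds 194 libraries, of which 88 are from L1210 cells and the others from primary mouse CD8+ T-cells that had been activated through CD3 and CD28 and were cultured with IL2. After removal of 2 doublets and of 5 libraries with fewer than 1000 genes above 0 TPM, 81 L1210 cells in 26 lineages were retained. A cell was called positive when Cdkn1a reached a ln(TPM + 1) of 2 or more and negative when Cdkn1a was listed at 0 TPM, where TPM is an abundance scaled for transcript length to the same total in each library. This gave 28 positive and 48 negative cells, 76 in all, and left 5 cells between the classes. No cell was manipulated to change Cdkn1a, so the classes are a division of untreated cells by a measured transcript, and the labels do not say how many cultures or device runs the lineages came from.

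Cdkn1a encodes p21, which binds and inhibits cyclin-dependent kinases and can hold a cell in G1 or G2. It is a direct target of the transcription factor p53, and it is also raised by routes that do not need p53. In proliferating cultures p21 is known to vary between genetically identical cells, and p53 target genes such as Ccng1, Mdm2, Bax and Zmat3 serve as a readout of p53 activity. Since p21 acts on progression through the cycle, cells with and without its transcript are described here along the pedigree and the recorded time since division.

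The bases before the transcription start are shown for Cdkn1a, which divided the cells, and for the 2 genes with the lowest P in the comparison below, because p53 binds DNA through a pair of half-sites of 10 bases each. The windows are the 250 bases before the RefSeq start (GRCm38.p6), read 5′ to 3′ on the strand of the gene, and capitals mark matches to the p53 half-site consensus, whose pattern reads the same on both strands. The Cdkn1a window is chr17:29090729-29090978 on the plus strand, the Ccng1 window chr11:40755287-40755536 on the minus strand, and the Dkkl1 window chr7:45211884-45212133 on the minus strand.
Cdkn1a: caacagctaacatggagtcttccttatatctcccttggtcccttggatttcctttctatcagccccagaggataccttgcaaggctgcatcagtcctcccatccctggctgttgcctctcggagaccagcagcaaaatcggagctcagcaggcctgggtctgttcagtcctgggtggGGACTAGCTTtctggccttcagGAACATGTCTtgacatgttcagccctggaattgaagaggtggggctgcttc
Ccng1: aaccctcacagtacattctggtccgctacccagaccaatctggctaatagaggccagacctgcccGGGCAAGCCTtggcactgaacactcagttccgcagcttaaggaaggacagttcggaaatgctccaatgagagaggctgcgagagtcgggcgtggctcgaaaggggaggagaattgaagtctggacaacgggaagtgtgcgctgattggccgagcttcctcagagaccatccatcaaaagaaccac
Dkkl1: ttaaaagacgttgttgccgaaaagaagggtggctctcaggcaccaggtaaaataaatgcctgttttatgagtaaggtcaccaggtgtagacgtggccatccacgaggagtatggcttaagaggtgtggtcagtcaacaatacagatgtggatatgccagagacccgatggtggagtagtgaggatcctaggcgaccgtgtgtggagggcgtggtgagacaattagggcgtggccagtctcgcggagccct

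Cdkn1a had 2 half-sites in this window, starting 73 and 51 bases before the start, and a second annotated Cdkn1a start at chr17:29093519-29093768 had 0. Ccng1 had 1 half-site, 185 bases before its start, and Mdm2 also had 1. Of all 32851 windows of this length, 7.13% held at least 1 half-site and 0.0639% held 2 that lay 0 to 13 bases apart. Among the 10 genes of lowest P that were higher in positive cells, all of which matched a RefSeq window by symbol or older symbol, only Ccng1 had a match within 250 bases of a start. A match is a pattern of letters in the window and was not measured as binding here.

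Libraries of the 2 classes were of similar complexity in their medians but not in their tails. Positive cells had 4951 to 10307 genes above 0 TPM with a median of 8290, and negative cells 2718 to 10454 with a median of 8406. Negative cells L1210_8, L1210_26 and L1210_27 had 2718, 2747 and 3190 detected genes, below every positive cell, and in L1210_8 the ribosomal precursor Rn45s took 79.3% of the TPM. Rn45s took 22.1% ± 3.16 in positive cells (SD, n = 28) and 21.7% ± 9.51 in negative cells (SD, n = 48). TPM keep no sequencing depth, and depth per cell was not used here, so no upper limit is given for a Cdkn1a value of 0. Many results that rest on these 3 libraries are given with and without them, but counts of genes over lineages and sister pairs include them. Of 15 pre-B and B lineage marker genes in the table, 13 were above 0 TPM in over 50% of the cells of each class, and their summed level was 1289 to 5471 TPM in positive cells (median 4118) and 610 to 6500 TPM in negative cells (median 3013). T lineage markers summed to medians of 20.4 and 19.1 TPM, with Cd3e at 0 in all cells of both classes, and myeloid markers to 7.04 and 16.4 TPM, in positive and negative cells respectively. What these marker levels contribute to the gene differences was not tested.

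Among positive cells Cdkn1a ranged from 2.05 to 5.20 with a median of 3.45 on the ln(TPM + 1) scale, which is 6.78 to 180.37 TPM with a median of 30.4 TPM. These values chose the cells and are given without a test. The cells nearest the cut were L1210_22 at 2.05, L1210_70 at 2.33 and L1210_61 at 2.53 inside it, and L1210_76 at 1.99, L1210_59 at 1.97 and L1210_78 at 1.89 outside it. The other intermediate cells were L1210_15 (5.22 TPM) and L1210_74 (2.31 TPM). Of the 81 cells 48 were thus at 0, and few lay near the cut. By the same rule 47 of 97 retained CD8+ T-cells were positive (48.5%, against 34.6% of L1210 cells), with a median of 4.17 and a highest value of 6.13.

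Positive and negative cells were spread unevenly over the pedigrees. Positive cells occurred in 16 of the 26 lineages. In 10 lineages both classes were present, with 15 positive and 16 negative cells, 9 lineages held 32 negative cells and no positive cell, 6 lineages held 13 positive cells and no negative cell, and 1 lineage was a single intermediate cell. Of the 14 lineages with all 4 cells retained, 6 had no positive cell, 2 had 4 positive cells and 1 had 3. The lineage of L1210_25 had Cdkn1a values of 4.08, 3.75, 3.40 and 3.56, the lineage of L1210_40 had 3.96, 4.32, 3.78 and 3.88, and the lineage of L1210_34 had 0, 4.25, 5.20 and 3.80. In the first and second of these lineages all 4 cells lay within a narrow band. In the third, the cell at 0 (L1210_34) was a cousin of L1210_56, which had the highest value of any L1210 cell. The sister of L1210_34 was L1210_67, at 3.80.

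**Figure D1:**
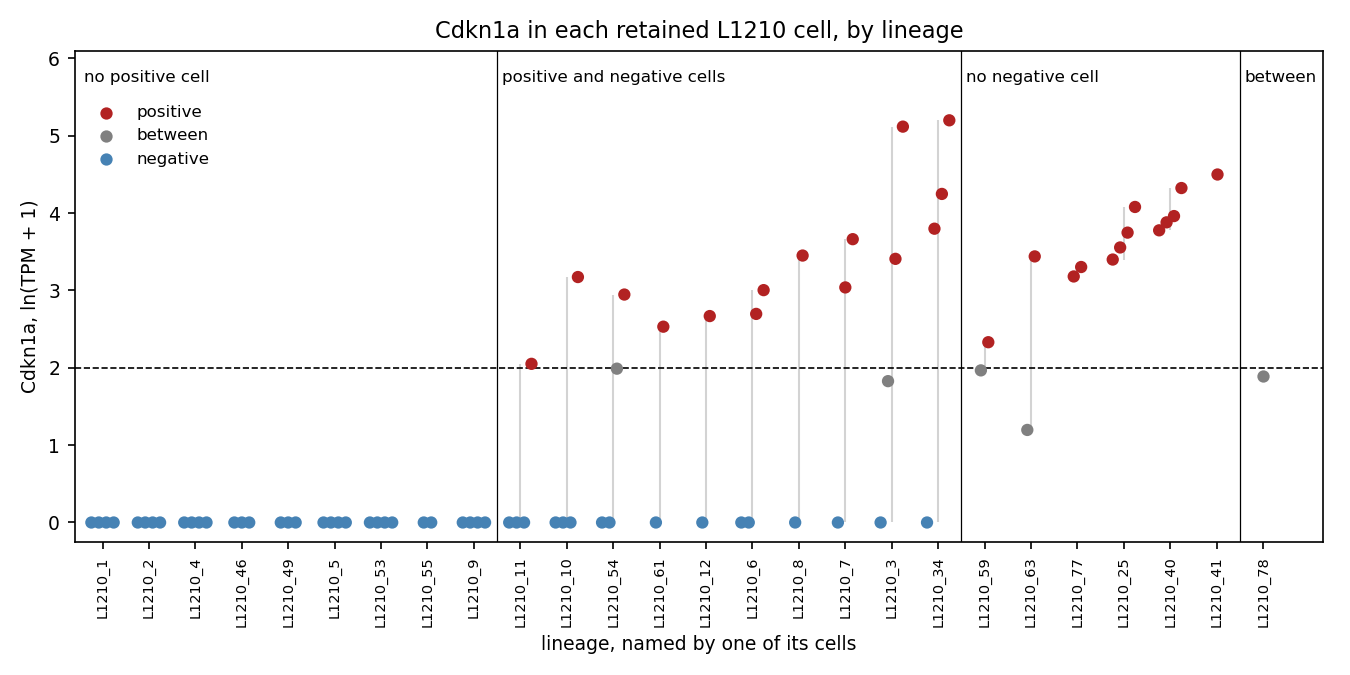
Cdkn1a as ln(TPM + 1) on the vertical axis in each of the 81 retained L1210 cells, grouped by lineage on the horizontal axis and coloured by class, with the cut of 2 as a dashed line. The 9 lineages at left hold no positive cell, the 10 in the middle hold both classes, and the lineages of L1210_25 and L1210_40 at right have all 4 cells between 3.40 and 4.32.

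Sister cells, the products of the last division, more often shared a class than not. Of 38 sister pairs, 19 were both negative, 7 both positive, 8 had 1 positive and 1 negative cell, and 4 had a positive and an intermediate cell. No pair joined a negative and an intermediate cell. In the 8 discordant pairs the positive sister had Cdkn1a between 2.05 (L1210_22) and 3.80 (L1210_67) while its sister was at 0. The negative sister was one of the libraries with few detected genes in 2 of these 8 pairs, L1210_8 with 2718 genes against 4951 in L1210_84, and L1210_26 with 2747 against 8762 in L1210_37. In the other 6 pairs the detected genes of sisters lay nearer to each other, for example 8156 in L1210_21 and 8185 in L1210_43. Among 43 sister pairs of CD8+ T-cells 15 were both negative, 16 both positive and 6 discordant. Sisterhood and Cdkn1a class were not tested against each other, since the class is the measure that chose the cells.

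By time since division, positive cells were found early and late, with few in between. Of the 33 cells under 3 h since division 16 were positive, of the 26 cells from 3 to under 7 h 2 were positive, and of the 22 cells at 7 h or more 10 were positive. The 5 intermediate cells all fell in the last window. Cells of a lineage mostly had similar times, so the windows hold few independent lineages: positive cells came from 8 of 10 lineages in the first window, from 1 of 8 in the second (the lineage of L1210_25, of which the other cells were under 3 h) and from 8 of 10 in the third. In CD8+ T-cells 12 of 23, 31 of 62 and 3 of 9 cells were positive in the same windows. The windows were set after the values were seen and carry no test.

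Over 25 lineages the share of positive cells and the mean hours since division had a Pearson's r of 0.258 (permutation P = 0.212, adjusted P = 0.425) and a Spearman's rho of 0.138 (permutation P = 0.509), and r was 0.173 without the 2 lineages farthest from the median time. Such coefficients measure a steady trend with time, not a fall followed by a return. Within the 10 lineages holding both classes, positive cells had divided 0.0836 ± 0.650 h longer ago than negative cells (SD, n = 10 lineages), with a longer time in 5 of 10 (2-sided exact permutation of signs over lineages, P = 0.727, adjusted P = 0.727). This difference was smaller than the spread between lineages. Sisters come from the same division, so their times differ little, as in L1210_12 and L1210_23 (11.717 and 11.733 h). Lineages holding only sisters thus had differences near 0 by design, and the test says little on an effect of time.

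**Figure D2:**
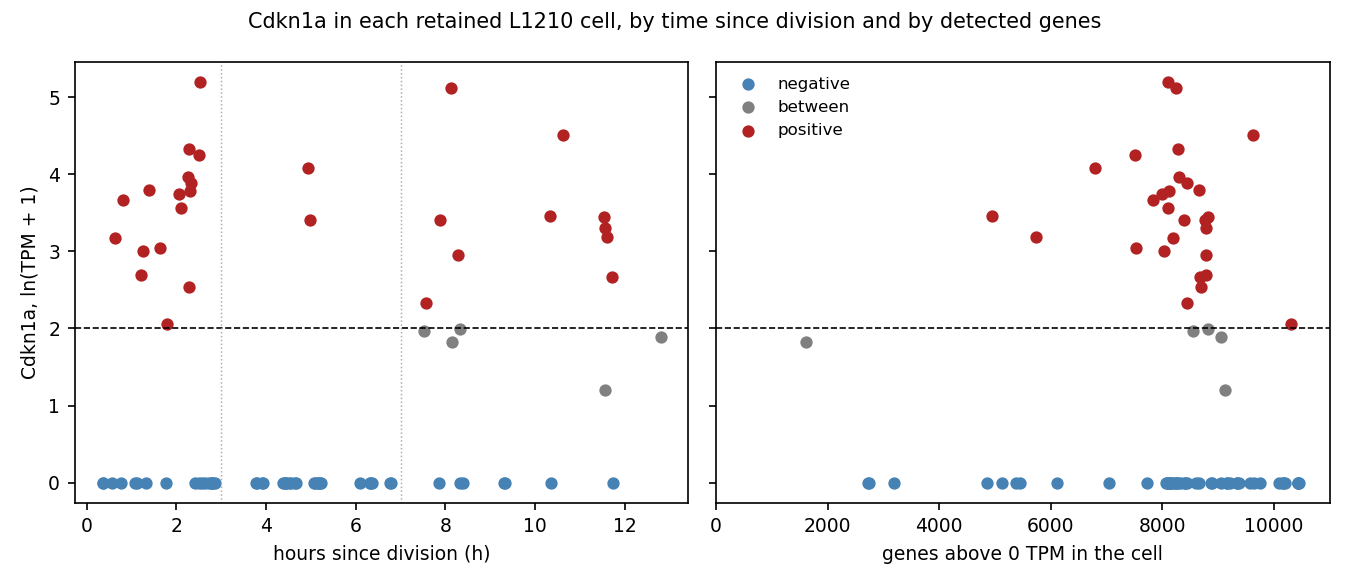
Cdkn1a as ln(TPM + 1) on the vertical axis against hours since division (left) and the number of genes above 0 TPM (right), 1 point per retained L1210 cell, coloured by class, with dotted lines at 3 and 7 h. Only 2 of the 26 cells between the dotted lines are positive, and the 3 negative cells under 4000 detected genes stand apart at right.

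Detected genes were compared in the same way. In lineages with both classes, positive cells had 1079 ± 1966 more detected genes than negative cells (SD, n = 10 lineages), higher in 6 of 10 (exact permutation of signs, P = 0.0879, adjusted P = 0.352). The difference was 350 ± 1024 over 8 lineages without the cells under 4000 detected genes (exact P = 0.352), so that the larger value rested on the lineages of L1210_8 and L1210_26. Over lineages, the share of positive cells and the mean number of detected genes had an r of -0.142 (permutation P = 0.509, adjusted P = 0.679) and a rho of -0.120 (permutation P = 0.566), and r was -0.0748 without the 2 lineages farthest from the median. The adjustment covers these 4 tests of hours and detected genes.

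All other genes were then compared between the classes, to ask which transcripts accompany Cdkn1a in cells of one line. Each lineage gave 1 mean of ln(TPM + 1) per class, 16 for positive and 19 for negative cells, and limma was fitted to 10535 genes with the lineage as a random block. No gene passed an adjusted P of 0.05, 0 higher and 0 lower (0% of the genes in each direction), and the lowest adjusted P was 0.0950. At an unadjusted P under 0.05, 493 genes were higher (4.68%) and 90 lower (0.854%) in positive cells. This imbalance moved with the libraries of few detected genes: the median difference over all genes was 0.14, and it was -0.04 without the 3 negative cells under 4000 detected genes, when 202 genes were higher (1.92%) and 392 lower (3.72%) and 1 gene passed the adjusted threshold (0.00949%). With detected genes as a covariate the median was 0.02, with 297 higher (2.82%), 269 lower (2.55%) and again 1 gene past the adjusted threshold (0.00949%), and with quantile normalization it was -0.02, a shift of 0.151. Differences below are therefore to be read against 0.14, and the value without those 3 cells is given for part of the genes. The classes also differed in time since division, as 24 of the 26 cells from 3 to under 7 h were negative. Hours since division as a covariate fits a steady trend only, and with it no gene passed (limma, lowest adjusted P 0.114).

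Ccng1, which encodes cyclin G1 and is one of the most direct p53 targets, had the second lowest P of all genes. It was above 0 TPM in 28 of 28 positive cells, from 3.97 to 5.78 with a median of 4.98, and in 45 of 48 negative cells, from 0 to 5.02 with a median of 3.88. The classes overlapped, but the lowest positive cell exceeded the median negative cell. Lineage means were 4.95 ± 0.36 in positive cells (SD, n = 16) and 3.59 ± 1.08 in negative cells (SD, n = 19), a difference of 1.35 ± 0.28 on the ln(TPM + 1) scale (SE, limma P = 1.8e-05, adjusted P = 0.0950), or 3.85-fold on TPM + 1. Ccng1 was higher in positive cells in 10 of the 10 lineages with both classes. These include the lineages of L1210_3 and L1210_8, whose only negative cells were L1210_26 and L1210_8, libraries with few detected genes. Without the cells under 4000 detected genes the difference was 0.99 ± 0.15 (SE) and passed the threshold (limma, adjusted P = 0.00099). It also passed with quantile normalization (1.18, adjusted P = 0.0048) and with a pseudocount of 10 TPM (1.05, adjusted P = 0.0022), but not with the lineage as a replicate block on lineage means (1.27, adjusted P = 0.719). Its adjusted P ranged from 0.00099 to 0.977 over 23 alternatives, 4 of which were under 0.05, and the remaining one of these took single cells, which are not independent, as the units (1.29, adjusted P = 0.0038).

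Ccng1 had higher medians in positive than in negative cells, whichever lineages they came from, but negative sisters L1210_54 and L1210_86 were at 5.00 and 5.02. Its median was 3.83 in 32 negative cells of lineages with no positive cell, 4.10 in 16 negative cells of lineages with both classes, 4.98 in 15 positive cells of those lineages and 4.98 in 13 positive cells of lineages with no negative cell. In discordant sister pairs the positive sister had the higher Ccng1 in 7 of 8, with a median difference of 0.50. The exception was the pair of L1210_19 (4.13) and L1210_7 (4.17). The 3 negative cells with Ccng1 at 0 were L1210_8, L1210_27 and L1210_80, with 2718, 3190 and 5454 detected genes.

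Dkkl1, a Dickkopf-like secreted protein known from the testis, had the lowest P of all genes. It was above 0 TPM in 22 of 28 positive cells with a median of 2.93 and a highest value of 4.39, and in 21 of 48 negative cells with a median of 0 and a highest value of 3.85. The ranges overlapped fully at the low end, and the classes differed mainly in the share of cells with the transcript. The difference of lineage means was 1.56 ± 0.31 (SE, limma P = 1.2e-05, adjusted P = 0.0950), higher in 8 and lower in 1 of the 10 lineages. It passed the threshold with detected genes as a covariate (1.39, adjusted P = 0.0311), with quantile normalization (1.32, adjusted P = 0.0063) and with a pseudocount of 10 TPM (0.67, adjusted P = 0.0219). It did not pass without the cells under 4000 detected genes (1.44, adjusted P = 0.141) or with the lineage as a replicate block (1.59, adjusted P = 0.719), and its adjusted P ranged from 0.0063 to 0.899 over 23 alternatives, 3 of which were under 0.05. Dkkl1 was higher in the positive sister in 6 of 8 discordant pairs.

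The third gene, 9030617O03Rik (Dglucy, a mitochondrial D-glutamate cyclase), was above 0 TPM in 26 of 28 positive cells with a median of 2.94 and in 32 of 48 negative cells with a median of 1.94, a difference of 1.28 ± 0.27 (SE, adjusted P = 0.0952). It was higher in 9 of 10 lineages with both classes, but in only 4 of 8 discordant sister pairs. No alternative brought it past the threshold.

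**Figure D3:**
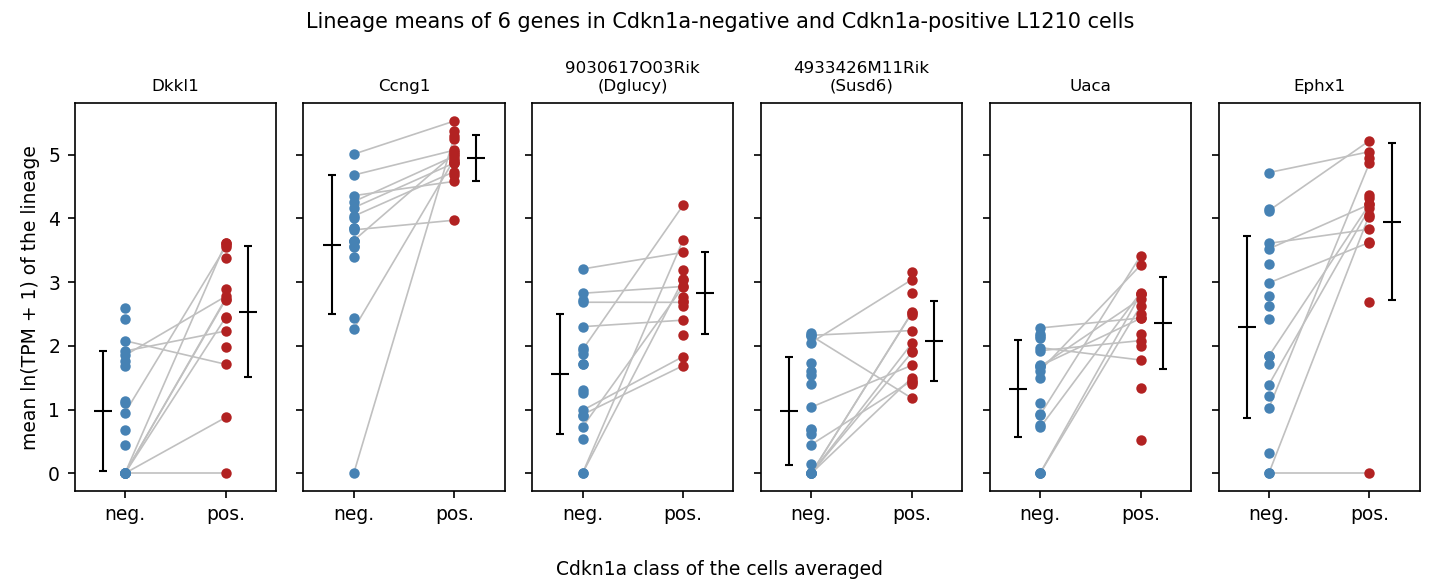
Mean ln(TPM + 1) of each lineage (vertical axis) in its Cdkn1a-negative (blue) and Cdkn1a-positive (red) cells for the 6 genes of lowest P that were higher in positive cells. Grey lines join the 10 lineages that hold both classes, and black marks are the mean ± SD over 19 negative and 16 positive lineage means, which for Ccng1 are 3.59 ± 1.08 and 4.95 ± 0.36.

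The next genes in order of P belonged to several processes. Ephx1, the microsomal epoxide hydrolase and a member of the p53 target list, had a median of 4.18 in positive and 3.02 in negative cells, with lineage means that differed by 1.65 ± 0.41 (SE, adjusted P = 0.421). It was higher in 9 and lower in none of the 10 lineages, the remaining one having it at 0 in both classes, and higher in the positive sister in 7 of 8 discordant pairs. Gtse1, whose product binds p53 and microtubules and accumulates in G2, had medians of 4.16 and 3.15, a difference of 1.46 ± 0.41 (SE, adjusted P = 0.823), and was higher in the positive sister in 8 of 8 pairs with a median difference of 0.98. The negative sisters L1210_8 and L1210_26, libraries with few detected genes, had Gtse1 at 0. Without the cells under 4000 detected genes Ephx1 differed by 1.43 and Gtse1 by 1.11. With the lineage as a replicate block the difference of Gtse1 was 2.14 on lineage means (adjusted P = 0.719). The same block on single cells, an alternative chosen after seeing the data that counts related cells as units, gave 2.21 (adjusted P = 0.0012). With this block the median over all genes was 0.28 on lineage means and 0.27 on single cells. Both fits include L1210_8 and L1210_26. Differences of 0610031J06Rik (Glmp, a lysosomal membrane protein), 4933426M11Rik (Susd6), Uaca, Rtn4 (a reticulon that shapes the endoplasmic reticulum) and Sash1 (a signalling scaffold) were 1.36, 1.12, 1.06, 0.88 and 0.68. Without the cells under 4000 detected genes they were 0.96, 0.99, 0.87, 0.72 and 0.62. Sash1 was higher in 10 of 10 lineages. None of these 5 genes passed under any alternative.

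Genes of lowest P that were lower in positive cells were mostly of low expression. Afmid, an arylformamidase of tryptophan breakdown, was above 0 TPM in 7 of 28 positive and 30 of 48 negative cells, a difference of -0.91 ± 0.24 (SE, adjusted P = 0.823). Kpna6, an importin of nuclear transport, had medians of 2.66 and 3.20 (difference -0.97), and Qk, an RNA-binding splicing regulator, had medians of 2.57 and 2.97 (difference -0.69). Rad54b, a helicase-like protein of homologous recombination, was above 0 TPM in 10 of 28 positive and 33 of 48 negative cells (difference -0.84). Fam105b (Otulin, a deubiquitinase), 9130011E15Rik (Armh3), Rccd1, Dhx40, 5830415F09Rik (Trmo) and Solh (Capn15) differed by -0.98, -0.97, -0.76, -0.80, -0.88 and -0.83. No gene in this direction passed the threshold in any of the 23 alternatives.

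Known p53 target genes were counted against this background. Of 44 genes on the list other than Cdkn1a, 34 passed the expression filter. None passed the adjusted threshold, 8 of 34 were higher at an unadjusted P under 0.05 (23.5%, against 4.68% of all genes) and 0 were lower (0.854% of all genes). Their median difference was 0.37, against 0.14 over all genes, and without the cells under 4000 detected genes it was 0.10 against -0.04, with 8 of 34 higher (against 1.92% of all genes), of which 7 were also among the first 8, Bax having replaced Dcxr. The list was drawn up with earlier results of these data known. The 8 genes with all cells were Ccng1, Ephx1, Slc19a2 (a thiamine transporter, 0.97), Zmat3 (an RNA-binding zinc finger protein, 0.94), Dcxr (dicarbonyl and L-xylulose reductase, 0.83), Trp53inp1 (0.63), Ptp4a3 (a phosphatase, 0.58) and Gadd45a (a growth arrest protein, 0.51). Zmat3 was above 0 TPM in 27 of 28 positive cells with a median of 3.05 and in 40 of 48 negative cells with a median of 2.09, and it was higher in the positive sister in 5 of 8 discordant pairs. Gadd45a was above 0 TPM in 7 positive and 6 negative cells only. In the 10 lineages with both classes, Slc19a2 was higher in positive cells in 5 and lower in 5. Zmat3 was higher in 7 and lower in 2, Dcxr higher in 6 and lower in 2, and Gadd45a higher in 5 and lower in 0. Trp53inp1 and Ptp4a3 were each higher in 7 and lower in 3.

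The 5 target genes of highest expression were Rps27l, Bax, Gpx1, Aen and Ccng1, whose difference of 1.35 was given above. Rps27l, a ribosomal protein-like target, had medians of 6.66 and 6.60, and its difference of 0.45 was 0.02 without the cells under 4000 detected genes. Bax, the mitochondrial pore former of apoptosis, had medians of 6.05 and 5.54 and a difference of 0.61 (P = 0.0600), which was 0.32 without those cells (P = 0.0150). Gpx1, a glutathione peroxidase, had medians of 5.83 and 5.67 and a difference of 0.48 (0.17 without those cells), and Aen, an apoptosis-enhancing nuclease, 4.57 and 4.40 and a difference of 0.45 (0.29 without them). Neither had an unadjusted P under 0.05. Mdm2, the ubiquitin ligase that degrades p53 and is itself a target, had medians of 3.45 and 3.37 and a difference of 0.33 ± 0.32 (SE), or -0.11 without those 3 cells. Of the 34 targets 6 were below 0, the lowest being Xpc (-0.21) and Btg2 (-0.21).

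**Figure D4:**
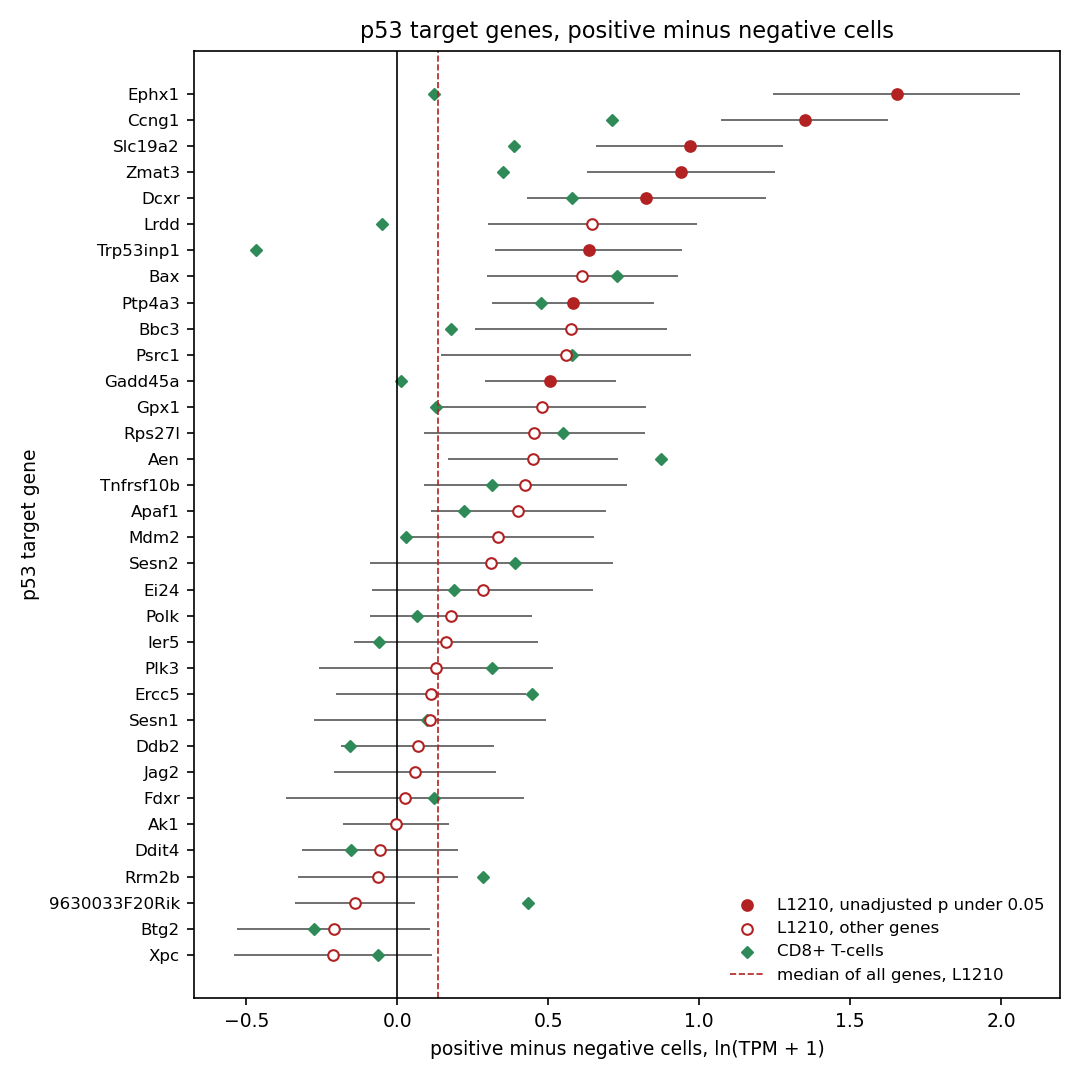
Difference of positive minus negative lineage means on the ln(TPM + 1) scale (horizontal axis) for the 34 p53 target genes tested in L1210 cells, with SE bars, filled where the unadjusted P was under 0.05, and the same difference in CD8+ T-cells as diamonds. Ephx1 (1.65) and Ccng1 (1.35) stand furthest to the right of the dashed median of all genes (0.14), and Mdm2 (0.33) lies nearer to it.

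The regulators upstream of p53 and the cell cycle machinery were described in the same way. Trp53 itself had medians of 5.44 in positive and 5.55 in negative cells, with a difference of 0.32 ± 0.32 (SE), or -0.06 without the 3 cells. Of 16 p53 regulators and DNA damage kinases 0 were higher (0%, against 4.68% of all genes) and 1 lower at an unadjusted P under 0.05 (6.25%, against 0.854%), the kinase Atm (-0.59). Of 23 CDK inhibitors, G1 cyclins, CDKs, RB and E2F genes none was under that limit in either direction. Without the 3 cells 1 was lower (4.35%, near the 3.72% of all genes), E2f8 (-1.03). The other CDK inhibitors Cdkn1b (0.09), Cdkn2c (0.23) and Cdkn2d (0.50), and cyclin D3, Ccnd3 (0.00, with medians of 5.97 and 6.11), had differences that lay within 2 SE of 0.

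Genes of DNA replication had a median difference of 0.01 over 43 genes, below the 0.14 of all genes, with 0 higher and 3 lower at an unadjusted P under 0.05 (6.98%, against 0.854%). The 3 were Hells, a chromatin remodeller (medians 2.00 and 3.16, difference -1.03), Cdc6, the origin licensing factor (1.56 and 3.11, -0.89), and Gins3, a subunit of the replicative helicase (0 and 2.47, -0.83). Without the cells under 4000 detected genes the median was -0.29 against -0.04, with 4 lower (9.30%, against 3.72%), and with detected genes as a covariate it was -0.21 against 0.02, with 7 lower (16.3%, against 2.55%). In the 10 lineages with both classes, Hells was lower in positive cells in 4 and higher in 5, and Cdc6 lower in 7 and higher in 2. Among cells at 7 h or more since division the Cdc6 difference was 0.15, below the median of 0.50 over all genes in that fit. That fit held 8 positive and 5 negative lineage means. Negative cells made up 24 of the 26 cells from 3 to under 7 h, so class is partly confounded with time since division. What time contributes to the differences of this list was not tested. Of 46 genes of G2 and mitosis, 2 were higher (4.35%, against 4.68% of all genes), Gtse1 and the spindle checkpoint kinase Ttk (0.83), and 0 lower. Without the 3 cells Ttk differed by 0.65 (P = 0.0943). The median of this list was 0.21 against 0.14 over all genes, and 0.01 against -0.04 without the 3 cells.

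Stress and lineage genes were counted next. Of 20 integrated stress response genes 1 was higher (5%, against 4.68% of all genes), Ppp1r15a (GADD34, which reverses eIF2 phosphorylation, medians 3.47 and 3.08, difference 1.05), and of 17 immediate early and MYC genes 2 (11.8%), Fos (0.85) and Dusp2 (0.93). Without the 3 cells Fos differed by 0.76 and Dusp2 by 0.49, neither under that limit. Of 16 oxidative stress genes 2 were higher (12.5%), Gclm (0.64) and Gsr (0.71), both of glutathione metabolism. Each was higher in positive cells in 5 and lower in 5 of the 10 lineages with both classes. Without the 3 cells neither had an unadjusted P under 0.05. Of 13 BCL2 family genes, 15 pre-B and B lineage genes, 4 T lineage genes and 2 myeloid genes tested, none was under that limit in either direction. Without the 3 cells 1 BCL2 family list member was lower (7.69%, against 3.72% of all genes), cytochrome c (Cycs, -0.24). Of the pre-B genes 2 were then lower (13.3%, against 3.72%), Pax5 (-0.39) and Il7r (-0.90), and 1 higher (6.67%, against 1.92%), Blnk (0.33). Among the pre-B genes, Cd79a, a chain of the B cell receptor complex, had medians of 6.12 and 6.02, and Igll1, of the surrogate light chain, 6.78 and 6.52.

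CD8+ T-cells divided by the same rule gave a second, independent set of libraries. The same fit, on 23 positive and 18 negative lineage means and 9996 genes, called 0 genes higher and 0 lower (lowest adjusted P 0.130), and at an unadjusted P under 0.05 604 were higher (6.04%) and 133 lower (1.33%). Of the 10 genes leading in L1210 cells, 8 were tested in CD8+ T-cells, 5 had the same direction, and 3 had an unadjusted P under 0.05: 9030617O03Rik (1.00 ± 0.35, P = 0.00706), Dkkl1 (0.80 ± 0.35, P = 0.0266) and Ccng1 (0.71 ± 0.24, P = 0.0055, all SE). Ephx1 differed by 0.12 and 4933426M11Rik by -0.69 there. Of the 10 genes leading in the other direction 9 were tested, 1 had the same direction and none an unadjusted P under 0.05 with it. The median CD8+ T-cell difference was 0.31 over the first set and 0.13 over the second. Over all genes tested in both cell types it was 0.0958, so the counts of direction are to be read against this upward shift. Of 32 p53 targets tested in CD8+ T-cells, 4 were higher and 0 lower at an unadjusted P under 0.05, against 6.04% and 1.33% of all genes. The 4 were Bax (0.73), Ccng1, Aen (0.87) and Rps27l (0.55). The median over the 32 was 0.20, against the 0.0958 of genes tested in both cell types. Positive CD8+ T-cells also had more detected genes than negative ones, with medians of 7444 and 6283, and what this contributes to their differences was not tested.

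Whether the effect differed between the cell types was tested with an interaction term. None of 9159 genes passed an adjusted P of 0.05 (lowest 0.308), and 441 (4.81%) had an unadjusted P under 0.05. For Ccng1 the L1210 difference exceeded that of CD8+ T-cells by 0.64 (P = 0.0893), for Dkkl1 by 0.76 (P = 0.119), for 9030617O03Rik by 0.28 (P = 0.536), and for Ephx1 by 1.53 (P = 0.00672, not past the adjusted threshold). For 4933426M11Rik, with opposite signs in the cell types, the term was 1.81 (P = 0.000187, adjusted P = 0.855). It was 1.57 for 0610031J06Rik (P = 0.00758), 1.07 for Rtn4 (P = 0.00301), -1.24 for Afmid (P = 0.00132) and -1.21 for Dhx40 (P = 0.00519). None of these passed the adjusted threshold.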

How the data were processed

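The authors aligned single-cell reads to mouse (mm10), estimated expression with RSEM 1.2.3 (per the submitters' processing notes) and deposited TPM for 23420 gene names, not log-transformed, summing to 1000000 per library. Of these names 27 appear as dates and 2 are repeated. Sequencing depth is unknown from TPM, and the labels name no culture, so P values cover the spread between lineages only.

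Lineages were built from the sister and cousin labels. Expression was ln(TPM + 1), and genes above 1 in over 10% of the retained cells of a type, whatever their class, were tested (10536 genes in L1210, 9997 in CD8+ T-cells, Cdkn1a included). Lineage means per class were fitted with limma 3.58.1 (R 4.3.3, duplicateCorrelation with the lineage as a random block, consensus correlation 0.112, 2-sided, Benjamini-Hochberg over all genes). Cells of a lineage come from one founding cell, which pairs the classes within the 10 lineages holding both. Hours and detected genes were compared by exact sign-flip and permutation tests (100000 resamples, 2-sided, scipy 1.17.1). Both were tested on simulated data with known changes.

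The genes named are the 10 of lowest P in each direction and the 5 p53 targets of highest expression. List members under an unadjusted P of 0.05 and the other list members named were chosen after their values were seen. The members and lists were chosen with earlier results of these data known.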

Additional observations from a re-analysis of the deposited data

Results flagged for a closer look

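Cdkn1a was at 4.59 on the ln(TPM + 1) scale (97.3 TPM) in L1210_50, a library that the labels mark as a doublet and that was left out of both classes. It had 5170 detected genes and a Ccng1 value of 4.88. The other 6 L1210 libraries left out were at 0 for Cdkn1a, with 12 to 1823 detected genes.

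Among the 10 lineages with both classes, 3 differences of positive minus negative cells stood far from the other 9 by Dixon's criterion, which chance meets in about 1 of 20 groups. The lowest and the highest difference were each checked for hours, detected genes, Dkkl1, Ccng1, 9030617O03Rik, 4933426M11Rik, Uaca and Ephx1. Hours since division differed by -1.43 h in the lineage of L1210_10, whose next value was -0.133 h. Detected genes differed by 5757 in the lineage of L1210_3 (next 2233), where the only negative cell was L1210_26 with 2747 detected genes. Ccng1 differed by 5.29 in the lineage of L1210_8 (next 2.67), where the only negative cell was L1210_8, with 2718 detected genes and Ccng1 at 0.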

How the results depend on the processing

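The number of genes higher in positive cells was 0 in the reported fit and 2 with a pseudocount of 10 TPM, 1 with single cells and the lineage as a random block, 1 with detected genes as a covariate, 1 with a minimum of 4000 detected genes and 2 with quantile normalization. With single cells and lineage as a replicate block, an alternative chosen after seeing the data, it was 1 (Gtse1), and with lineage means and lineage as a replicate block it was 0. Genes of the fixed lists called were 1 with the pseudocount of 10 TPM, with both fits to single cells, with the minimum of 4000 and with quantile normalization, and 0 with the covariate. The number of lower genes was 0 in each of 23 alternatives, and no other alternative gave a call. Rps27l turned from 0.45 to -0.0377 in cells under 3 h since division, an alternative chosen after seeing the data. The cause was not tested. No alternative changed the call of a test on hours or detected genes. Reads per cell limit what a value of 0 means, and they are not held in TPM.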
